A study of Mus musculus with 6 samples.

Results

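The insulin-like growth factor (IGF) receptors, the IGF binding proteins and the adaptor Irs1 were followed as a set of 10 named genes, of which 9 had a row in the count table of 22295 genes: Igf1r, Igf2r, Igfbp2, Igfbp3, Igfbp4, Igfbp5, Igfbp6, Igfbp7 and Irs1. The genes were taken by their symbol, and the ligand Igf1 was not analysed here. RNA came from GFP-positive keratinocytes that were sorted from the epidermis of 3 K19(Cre-ERT); mTmG mice (WT) and 3 K19(Cre-ERT); mTmG; Itga3 fl/fl mice (KO), all on the FVB background (FVB/N in the study's methods), with 1 library per mouse. Mice of both genotypes carried the Cre and the reporter, received tamoxifen (10 mg/ml, over 4 days from the age of 6 weeks), and at 7 weeks were given 30 μg of the carcinogen DMBA, followed by repeated 12.34 μg doses of the tumor promoter TPA. There were no untreated mice, so the treatment itself cannot be read from these libraries. Cre is driven by the promoter of keratin 19, which is active in the hair bulge (HB), and GFP marks cells in which the reporter has recombined and their progeny. It does not itself report the deletion of Itga3. Only the KO mice carry floxed alleles of Itga3, the gene of the α3 subunit of the laminin receptor integrin α3β1. The question addressed was which transcripts differ between these cells with and without α3β1.

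IGF ligands act on keratinocytes through the IGF1 receptor, a tyrosine kinase that recruits insulin receptor substrate (IRS) adaptors and switches on PI3 kinase and AKT. The IGF2 receptor has no kinase and carries IGF2 to the lysosome for degradation. The secreted IGF binding proteins hold the ligands outside the cell and can either block or prolong their action, and proteases release the ligand by cutting them. In skin, IGF1 is mostly a product of dermal fibroblasts, whereas the epithelium carries the receptor.

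Depth was similar in all libraries, at 20578309 to 23670507 counts. The column names of the table give genotype and mouse but not the sample numbers of the titles, so the 3 libraries of each genotype are named by the letters a, b and c as they stand there, and values for single libraries are always listed in that order. Levels are given as CPM, the counts scaled to library size with TMM factors. Itga3 was lower in KO, at 129 ± 5.22 CPM (SD, n = 3) against 298 ± 63.9 CPM in WT (log2 fold change −1.20 with a standard error of 0.13, adjusted p = 0.00283 in edgeR, with quasi-likelihood fits to all 21681 genes that had a count). The keratinocyte gene Krt5 stood between 14267 and 23976 CPM in every library. The summed level of 5 endothelial markers was at most 3.56 CPM and that of 3 adipocyte markers at most 0.275 CPM. The 8 genes listed as fibroblast markers summed to 176 to 258 CPM in WT and 70.3 to 128 CPM in KO libraries, almost all of it from Col1a1, Col1a2 and Thy1. The other 5 were at most 5.44 CPM each. Of these, Col3a1 was at 0 in each WT library and reached 1.40 CPM in KO, and Lum reached 0.141 CPM. Dcn stood at 0.573 to 1.69 CPM in WT and 1.55 to 5.44 CPM in KO. Pdgfra went the other way, at 0.688, 1.33 and 1.06 CPM in WT and 0.340, 0.563 and 0.339 CPM in KO. Pdgfrb was at most 0.824 CPM. WT b stood apart on the first principal component of all tested genes (35.8 against −23.8 to 11.2 in the other libraries), and values without it are given where it decides a result.

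The genes of Igfbp2 and Igfbp5 are neighbours on chromosome 1, 5.46 kb apart, and those of Igfbp1 and Igfbp3 on chromosome 11, 3.54 kb apart. In each pair 1 gene was well expressed in the sorted cells and the other was not, so the 250 bases before each start site are shown for these 4 genes (RefSeq, GRCm38.p6, written 5′ to 3′ on the strand of the gene). All 9 genes measured had such a window in the promoter table, with 2 start sites for Igfbp2, of which the upstream one is shown. Capitals mark matches on either strand to any of 5 motifs. The TATA box was searched as TATAAA, the GC box as GGGCGG, the AP-1 or TPA response element as TGANTCA, the FOXO motif as GTAAACA and the TEAD motif as CATTCC. None of these motifs contains another.
Igfbp2, chr1:72824230-72824479, plus strand: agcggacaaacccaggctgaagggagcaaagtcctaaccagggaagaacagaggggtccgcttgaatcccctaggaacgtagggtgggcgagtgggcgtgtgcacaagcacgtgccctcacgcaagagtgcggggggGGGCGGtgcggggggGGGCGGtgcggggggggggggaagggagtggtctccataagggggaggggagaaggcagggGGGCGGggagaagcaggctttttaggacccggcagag
Igfbp5, chr1:72874866-72875115, minus strand: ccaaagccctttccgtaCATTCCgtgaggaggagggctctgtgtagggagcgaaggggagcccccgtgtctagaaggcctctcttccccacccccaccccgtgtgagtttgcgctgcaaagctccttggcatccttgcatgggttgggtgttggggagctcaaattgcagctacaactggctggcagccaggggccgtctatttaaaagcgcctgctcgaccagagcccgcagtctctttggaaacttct
Igfbp1, chr11:7197537-7197786, plus strand: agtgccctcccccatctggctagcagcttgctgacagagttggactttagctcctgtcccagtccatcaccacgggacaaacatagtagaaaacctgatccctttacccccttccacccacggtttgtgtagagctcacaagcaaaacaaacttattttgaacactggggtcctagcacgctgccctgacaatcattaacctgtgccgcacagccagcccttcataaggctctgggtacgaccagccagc
Igfbp3, chr11:7213924-7214173, minus strand: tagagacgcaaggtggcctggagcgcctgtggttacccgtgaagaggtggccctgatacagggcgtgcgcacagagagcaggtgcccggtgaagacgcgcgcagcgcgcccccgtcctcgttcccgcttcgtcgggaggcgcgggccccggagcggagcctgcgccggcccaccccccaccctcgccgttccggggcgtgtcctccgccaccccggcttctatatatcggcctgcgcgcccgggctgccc
The Igfbp2 window shown held 3 GC boxes and the Igfbp5 window 1 TEAD match, whereas those of Igfbp1 and Igfbp3 held no match to the 5 strings searched. Sites spelled otherwise were not sought, so a window without a match can still hold such a site. The window of the second Igfbp2 start site had no GC box and 1 AP-1 match, 39 bases from the start, the one AP-1 match in the windows of the set. Among all 32851 windows of this length, 32.7% held a GC box, 12.6% a TEAD match, 12.4% a TATA box, 6.75% an AP-1 match and 3.17% a FOXO match. The Igfbp3 window had 32 CpG dinucleotides (percentile 95.4 of all windows) and that of its neighbour Igfbp1 had 5 (percentile 44.4). In the other pair the order of CpG content did not follow expression, with 14 CpG before the weakly expressed Igfbp2 and 10 before Igfbp5. Among the remaining genes of the set, Igfbp7 (4 matches), Igf2r (3), Igf1r (2) and Irs1 (2) had GC boxes, and Irs1 also had 1 TEAD match. Igfbp4 and Igfbp6 had 1 match each to the TATA motif. That of Igfbp4 began 28 bases from the start, and that of Igfbp6 began 148 bases from it and lay on the opposite strand.

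Levels of different genes were compared per kilobase of exon, as the mean CPM divided by exon length. Igfbp7 led by a wide margin, at 106 ± 17.6 CPM per kb in WT and 129.7 ± 9.32 in KO (SD over 3 libraries), higher than 98.6% of tested genes. It encodes a secreted protein that binds IGFs only weakly and lies in the matrix around cells. Igfbp3 followed at 29.4 ± 22.2 in WT and 28.4 ± 1.14 in KO, and Igfbp4 at 16.8 ± 5.51 and 15.0 ± 3.64 CPM per kb. Igfbp7 exceeded Igfbp3 in 6 of 6 libraries, whereas Igfbp3 exceeded Igfbp4 in 5 of 6, the exception being WT b. Igf2r (11.7 ± 0.257 in WT, 11.4 ± 0.745 in KO) and Igfbp5 (10.0 ± 2.57 and 13.0 ± 3.62) could not be ordered, since each was the higher in 3 of 6 libraries. Igfbp6 stood at 9.998 ± 3.72 CPM per kb in WT and 5.60 ± 2.20 in KO, below Igfbp5 in 5 of 6 libraries. The signalling genes Igf1r and Irs1 lay lower, at 3.27 ± 0.379 and 3.11 ± 0.491 CPM per kb in WT, and Igf1r exceeded Irs1 in 4 of 6 libraries only. Igfbp2 came last, at 1.39 ± 0.528 in WT and 1.09 ± 0.421 in KO. Per kilobase, Igfbp5 exceeded its neighbour Igfbp2 between 5.01-fold and 17.5-fold in every library, and the other neighbour, Igfbp1, had 1 to 3 counts per library, at or under the 3 counts taken as the floor of detection.

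**Figure D1:**
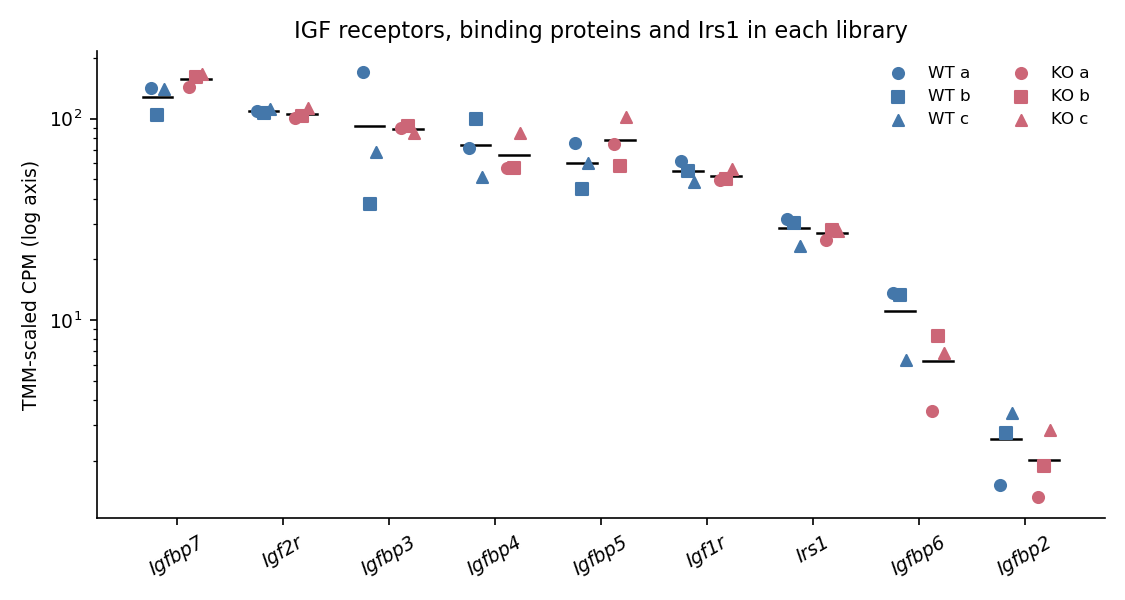
TMM-scaled CPM (log axis) of the 9 genes in each of the 6 libraries, WT in blue and KO in red, with the symbol giving the library (a, b or c) and the black line the mean of 3. The WT libraries spread from 37.7 to 170.2 CPM for Igfbp3 while the KO libraries sit between 85.0 and 91.9, and only for Igfbp7 do the groups not overlap.

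No gene of the set passed an adjusted p below 0.05 in edgeR (0 of 9), where 0.673% of all 21681 tested genes passed. DESeq2 and limma-voom also called 0 of 9. At an unadjusted p below 0.05, 2 of 9 passed, namely Igfbp6 and Igfbp7, against 11.5% of all tested genes. Every KO library lay above every WT library for 1 of 9 genes (Igfbp7), where 8.03% of tested genes do so, and below for 0 of 9, where 8.23% do so. The median log2 fold change of the set was −0.08, and that over all tested genes was 0.000088. With 3 libraries per genotype the exact two-sided permutation test used below for single genes cannot give a p under 0.1. In bulk RNA, fewer expressing cells and less RNA per cell cannot be told apart.

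Neither IGF receptor passed the test. Igf1r (ENSMUSG00000005533, chromosome 7, 67952859 to 68226780), the signalling receptor, stood at 61.4, 54.7 and 48.6 CPM in WT and at 49.7, 50.3 and 56.1 CPM in KO libraries. The groups overlapped throughout, and the log2 fold change was −0.08 (95% interval −0.31 to 0.16, adjusted p = 0.792 from edgeR). Igf2r (ENSMUSG00000023830, chromosome 17, 12682406 to 12769664), the clearance receptor, stood at 109.5, 107 and 112 CPM in WT and at 100.1, 104 and 113 CPM in KO libraries. Its coefficient of variation was 2.19% in WT and 6.56% in KO, and the log2 fold change of −0.05 had the narrowest interval of the 9 genes (−0.24 to 0.14, adjusted p = 0.853). Per kilobase, the ratio of Igf2r to Igf1r was 3.63 ± 0.469 in WT and 3.66 ± 0.0452 in KO (both SD, n = 3). The counting used the strand, so antisense RNA within the Igf2r gene would not be counted for it.

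Irs1 (ENSMUSG00000055980, chromosome 1, 82233101 to 82291416), the adaptor that couples the receptor to PI3 kinase, had 31.8, 30.2 and 23.4 CPM in WT and 24.8, 28.1 and 27.7 CPM in KO libraries. The KO values fell inside the WT range, with a log2 fold change of −0.08 (95% interval −0.37 to 0.21, adjusted p = 0.829 from edgeR). Its paralog Irs2 was the more abundant adaptor, exceeding Irs1 per kilobase by 2.70-fold to 4.40-fold in the 6 libraries. That ratio was 3.20 ± 0.467 in WT and 3.87 ± 0.469 in KO (SD, n = 3; exact two-sided permutation test, p = 0.2).

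Igfbp7 (ENSMUSG00000036256, chromosome 5, 77349240 to 77408045) had 142, 104 and 139.6 CPM in WT and 144, 161 and 166 CPM in KO libraries. Each KO library was above each WT library, but the lowest KO and the highest WT library were only 2.01 CPM apart, and with upper-quartile scaling this difference was −0.916 CPM, an overlap. The log2 fold change was 0.29 (standard error 0.12, 95% interval 0.02 to 0.55, unadjusted p = 0.0374, adjusted p = 0.393 from edgeR; exact permutation p = 0.1). Without WT b, the lowest library, the log2 fold change was 0.15 (unadjusted p = 0.116, adjusted p = 0.681 from edgeR). The unadjusted p from edgeR was also above 0.05 without KO b (0.0783) and without KO c (0.116). With the 2 filters on low counts it was 0.0538 and 0.0537. It stayed below 0.05 in the remaining settings. Igfbp7 is a well-known gene of blood vessels, and its levels stand beside 5 endothelial markers that summed to 2.38 to 3.53 CPM in WT and 2.76 to 3.56 CPM in KO libraries. Pecam1 was among them at 0.964, 1.05 and 1.41 CPM in WT and 1.87, 1.64 and 1.84 CPM in KO, without overlap (log2 fold change 0.64, unadjusted p = 0.0419, adjusted p = 0.411 from edgeR). Kdr had an estimate of −0.62 (adjusted p = 0.591), and Cdh5 was at 0 in the WT libraries and at most 0.0850 CPM in KO. The part of these markers in the Igfbp7 values was not tested.

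Igfbp6 (ENSMUSG00000023046, chromosome 15, 102144362 to 102149511), which prefers IGF2 as its ligand, had 13.7, 13.3 and 6.35 CPM in WT and 3.53, 8.30 and 6.87 CPM in KO libraries. WT a and WT b were above all KO libraries, while WT c lay among them. The log2 fold change of −0.84 was the largest of the set (standard error 0.32, 95% interval −1.55 to −0.13, unadjusted p = 0.0244, adjusted p = 0.333 from edgeR; exact permutation p = 0.3). It rests on 83 to 298 counts per library. Without KO a, the lowest library, the log2 fold change was −0.55 (unadjusted p = 0.123, adjusted p = 0.794), and without WT c it was −1.12 (adjusted p = 0.410). It was −0.69 without WT b (unadjusted p = 0.0848) and −0.66 without WT a (unadjusted p = 0.075). The unadjusted p was also above 0.05 in limma-voom (0.0501) and in edgeR with the 2 filters on low counts (0.0564 and 0.0573). In the remaining settings it stayed below 0.05. The summed fibroblast markers, set by Col1a1, Col1a2 and Thy1, were lower in KO as well, as given above. Of the low markers, Pdgfra (−1.30, unadjusted p = 0.00789, adjusted p = 0.203 from edgeR) and Pdgfrb (−0.31) had estimates below 0. Dcn (1.84, unadjusted p = 0.00221, adjusted p = 0.113 from edgeR), Col3a1 (6.47) and Lum (2.23) had estimates above 0. KO a, the library with the least Igfbp6, was the one with the lowest sum (70.3 CPM) and the highest Dcn (5.44 CPM), whereas WT c had a sum of 240 CPM beside an Igfbp6 level in the KO range. The part of these markers in the Igfbp6 values was not tested.

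Igfbp3 (ENSMUSG00000020427, chromosome 11, 7206086 to 7213923), the main carrier of IGFs in blood and also a product of keratinocytes, varied most between WT mice. It had 170.2, 37.7 and 68.3 CPM in WT and 89.9, 91.9 and 85.0 CPM in KO libraries. The highest WT library exceeded the lowest 4.52-fold, against 1.08-fold among the KO libraries, and all KO values lay within the WT range. The coefficient of variation was 75.4% in WT and 4.00% in KO, and with 823 to 3709 counts per library this spread was far above counting error. The log2 fold change was −0.05 with a wide interval (−0.88 to 0.78, adjusted p = 0.986 from edgeR). A single library set its sign: without WT a it was 0.75 (adjusted p = 0.0564), and without WT b −0.42 (adjusted p = 0.715). In limma-voom, which averages on the log scale, it was 0.23 (adjusted p = 0.839).

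Igfbp4 (ENSMUSG00000017493, chromosome 11, 99041244 to 99054392) is an inhibitor of IGF action and lies 3.96 Mb from Itga3. Its level was 71.3, 99.9 and 51.4 CPM in WT and 57.1, 56.9 and 84.8 CPM in KO libraries. WT b and KO c stood above the other libraries of their groups, and the groups overlapped (log2 fold change −0.16, 95% interval −0.63 to 0.30, adjusted p = 0.772 from edgeR). Without WT b the log2 fold change was 0.11 (adjusted p = 0.866).

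Igfbp5 (ENSMUSG00000026185, chromosome 1, 72857932 to 72874884), a binding protein that also attaches to the extracellular matrix, had 75.7, 44.8 and 60.0 CPM in WT and 74.9, 58.2 and 101 CPM in KO libraries. KO c was the highest and WT b the lowest library, and the groups overlapped. The log2 fold change was 0.38 (95% interval −0.07 to 0.82, adjusted p = 0.534 from edgeR). It was 0.15 (adjusted p = 0.806) without KO c and 0.20 (adjusted p = 0.774) without WT b. Its neighbour Igfbp2 (ENSMUSG00000039323, chromosome 1, 72824503 to 72852474), which carries an integrin-binding RGD sequence, had 1.51, 2.75 and 3.44 CPM in WT and 1.32, 1.88 and 2.85 CPM in KO libraries. These values rest on 31 to 78 counts, and the interval of the log2 fold change of −0.36 ran from −1.13 to 0.42 (adjusted p = 0.681). The coefficient of variation was 38.6% in KO and similar in WT. The estimate lay between −0.69 without KO c and −0.09 without WT c.

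**Figure D2:**
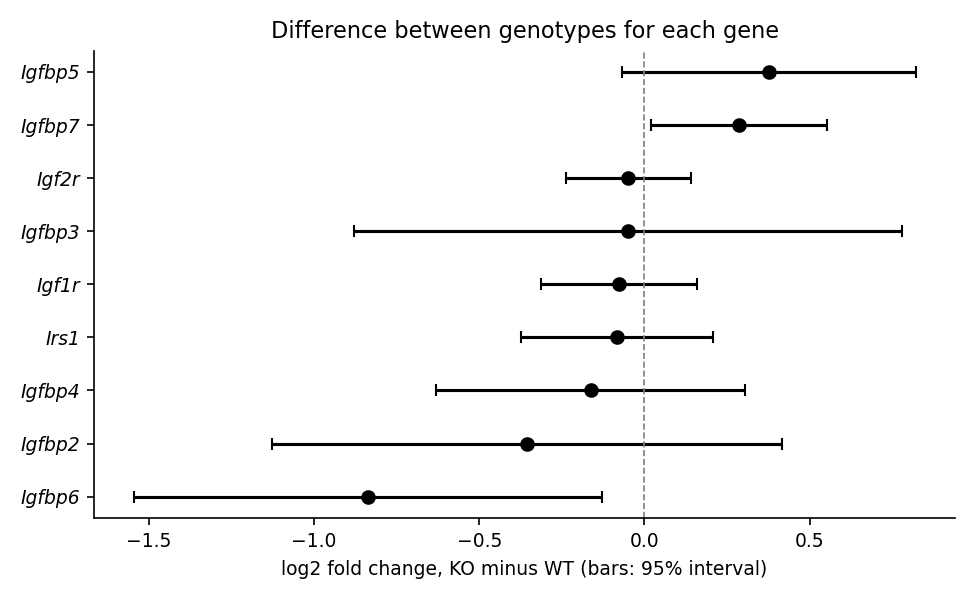
Log2 fold change of KO against WT (horizontal axis) for each of the 9 genes, with bars for the 95% interval of edgeR's fit. The interval excludes 0 for Igfbp7 (0.02 to 0.55) and Igfbp6 (−1.55 to −0.13) without adjustment for the genes tested, and it is widest for Igfbp3.

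Taking the binding proteins as a mixture, Igfbp7 made up 61.7 ± 7.24% of the summed CPM per kb of the 6 genes in WT and 67.3 ± 1.44% in KO libraries (SD, n = 3; exact two-sided permutation test, p = 0.4). Igfbp3 made up 15.7 ± 8.76% and 14.8 ± 1.61%, ranging from 8.50% in WT b to 25.4% in WT a. The share of Igfbp4 was highest in WT b, at 16.0%, and between 6.67% and 9.24% in the other 5 libraries. The share of Igfbp6 was 5.88 ± 2.52% in WT and 2.87 ± 1.04% in KO (exact two-sided permutation test, p = 0.2). The sum over the 6 genes was 174 ± 36.7 CPM per kb in WT and 193 ± 15.4 in KO (exact two-sided permutation test, p = 0.5). The shares were more alike among the 3 KO libraries than among the 3 WT libraries for Igfbp7, Igfbp3, Igfbp4 and Igfbp6, as far as the SD of 3 values shows. The share of Igfbp5 went the other way, with an SD of 0.397 percentage points in WT and 1.57 in KO. The difference in spread was not tested.

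**Figure D3:**
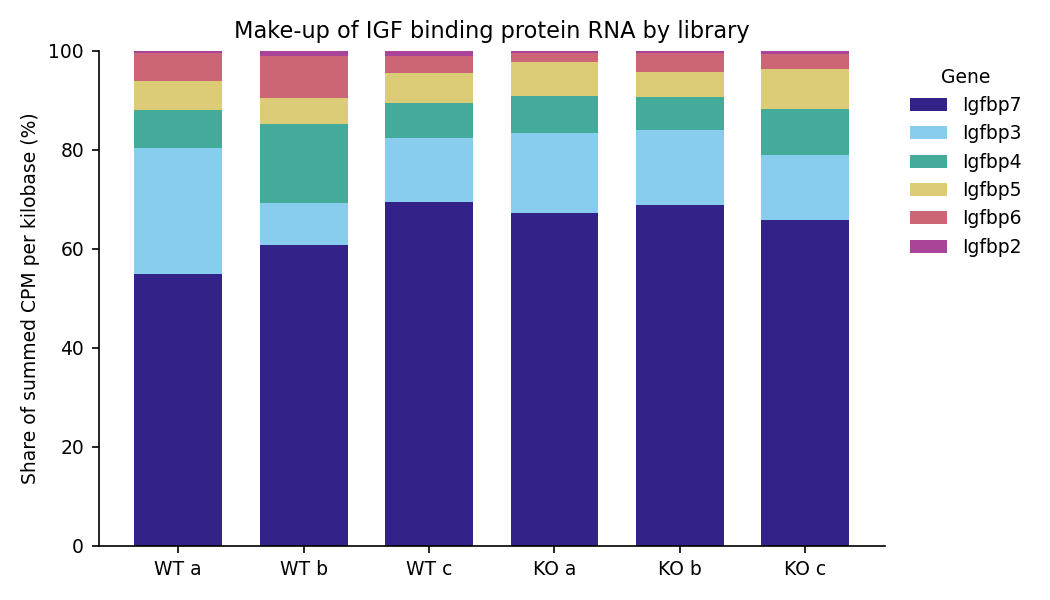
Share (%) of each binding protein gene in the summed CPM per kilobase of the 6 IGF binding protein genes, 1 bar per library. Igfbp7 holds between 55.0% (WT a) and 69.4% (WT c) of the sum, and WT a and WT b differ from the rest in their shares of Igfbp3 (25.4%) and Igfbp4 (16.0%).

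WT a was the highest library for 4 genes (Igf1r, Igfbp3, Igfbp6 and Irs1) and KO c for 3 (Igf2r, Igfbp5 and Igfbp7). The lowest values were split between WT b (Igfbp3, Igfbp5 and Igfbp7), WT c (Igf1r, Igfbp4 and Irs1) and KO a (Igf2r, Igfbp2 and Igfbp6), and KO b was neither the highest nor the lowest for any.

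The rest of the pathway was read from 8 lists: other ligands and receptors, other binding proteins and their regulators, growth hormone signalling, adaptors, PI3 kinase and AKT, TOR, FOXO, and the IGF2 mRNA binding proteins. Of 62 genes listed, 59 were tested, 2 rose in KO, 0 fell and 57 did not pass (edgeR, adjusted p below 0.05). The median log2 fold change of the 59 was 0.00. Called were 0.673% of all tested genes. An unadjusted p below 0.05 was found for 15 of the 59, against 11.5% of all tested genes, and for 12 without WT b, against 9.83%. Grb14, an adaptor that binds the activated insulin and IGF1 receptors and blocks their kinase, had 11.8, 14.7 and 11.7 CPM in WT and 21.2, 19.7 and 30.4 CPM in KO libraries. The groups did not overlap, and the log2 fold change was 0.90 (standard error 0.17, 95% interval 0.52 to 1.28, adjusted p = 0.0452 from edgeR). Socs3, a feedback inhibitor of cytokine receptors that can also bind the insulin and IGF1 receptors, had 254, 208 and 245 CPM in WT and 323, 332 and 379 CPM in KO libraries. Here too all KO libraries lay above WT, and the estimated log2 difference was 0.55 (standard error 0.11, 95% interval 0.32 to 0.78, adjusted p = 0.0453 from edgeR). Both calls were close to the threshold and were lost in limma-voom (adjusted p = 0.138 for Grb14 and 0.111 for Socs3), with the 2 filters on low counts, among protein-coding genes alone and without WT b, WT c, KO a or KO c. Without KO b the call of Socs3 was lost as well (adjusted p = 0.0639) and with library size only that of Grb14 (adjusted p = 0.0581). Across these settings, chosen after seeing the data, the adjusted p of Grb14 lay between 0.000813 and 0.379 and that of Socs3 between 0.00049 and 0.368. The log2 fold changes lay between 0.69 and 1.03 and between 0.47 and 0.61, above 0 in each setting. Some markers of cell state differed between the genotypes as well. Called were 1 of 8 bulge, 1 of 7 suprabasal and 3 of 10 hair lineage genes, against 0.673% of all tested genes. The bulge gene Cd34 was lower in KO (−0.72, adjusted p = 0.0462), while the suprabasal gene Sbsn (0.96, adjusted p = 0.00104) and the hair keratins Krt25 (3.45, adjusted p = 0.0256), Krt28 (1.83, adjusted p = 0.0461) and Krt35 (3.13, adjusted p = 0.0462) were higher. The hair keratins rest on few and uneven counts. Krt25 had 8, 14 and 4 counts in WT and 114, 28 and 143 in KO libraries. Krt28 had 29, 45 and 38 in WT and 213, 64 and 123 in KO. Krt35 had 6, 7 and 8 in WT and 120, 15 and 54 in KO. The marker calls were not followed over the other settings. The genes not called went both ways in each list. Examples are Lgr5 (−0.47) and Sox9 (0.16) for bulge, Krtdap (0.26) and Lor (−0.69) for suprabasal, and Krt71 (1.06) and Lef1 (−0.16) for hair lineage. The part of these markers in the Grb14 and Socs3 values was not tested.

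The lists did not hold every gene of these families, and 2 genes outside them, chosen here after their values were seen, were called higher in KO. Foxo6, a FOXO factor, had 7.39, 6.23 and 5.56 CPM in WT and 19.3, 14.02 and 25.97 CPM in KO libraries. The groups did not overlap (log2 fold change 1.63, standard error 0.21, 95% interval 1.16 to 2.096, adjusted p = 0.00764 from edgeR). Pik3r3, a regulatory subunit of PI3 kinase, had 12.6, 10.4 and 12.7 CPM in WT and 34.3, 19.9 and 27.7 CPM in KO libraries, again without overlap (log2 fold change 1.196, standard error 0.18, 95% interval 0.79 to 1.60, adjusted p = 0.0187 from edgeR). Over the 14 alternatives and omissions Foxo6 was called in 9 and Pik3r3 in 7. Neither was called in limma-voom (adjusted p = 0.0699 and 0.105), with the filters on low counts, or without WT c (0.288 and 0.326) or KO a (0.136 and 0.189), and Pik3r3 was not called among protein-coding genes alone (0.0773) or without KO c (0.0815).

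In the other 6 lists 0 genes passed in edgeR or limma-voom. DESeq2 called 1 regulator of binding proteins (Pappa) and 2 genes of the FOXO list (Sesn1 and Txnip), and in the adaptor list Gab1 besides Grb14. At an unadjusted p below 0.05 in edgeR, 1 of 3 ligand and receptor genes, 3 of 7 binding protein genes, 1 of 8 TOR genes, 4 of 9 FOXO genes and 0 of the listed PI3 kinase, AKT and IGF2 mRNA binding genes passed, where 11.5% of all tested genes do. The gene with the smallest p of each is given. Among ligands and receptors this was Insr, the insulin receptor, at 78.4, 85.9 and 79.8 CPM in WT and 65.4, 69.7 and 65.4 CPM in KO libraries (log2 fold change −0.28, 95% interval −0.47 to −0.10, unadjusted p = 0.00619, adjusted p = 0.181 from edgeR). Every KO library was below every WT library. Per kilobase, Insr exceeded Igf1r in each library, between 1.42-fold and 2.01-fold. The ligand Igf2 had only 5 to 16 counts per library. Among regulators of binding proteins it was Pappa, the protease that cuts IGFBP4 and releases its ligand, with 25.5, 20.3 and 19.4 CPM in WT and 33.0, 25.4 and 41.7 CPM in KO. WT a and KO b were level, and the log2 fold change was 0.62 (95% interval 0.24 to 1.00, unadjusted p = 0.00413, adjusted p = 0.154 in edgeR and 0.0472 in DESeq2). Among PI3 kinase and AKT genes it was the kinase gene Gsk3a (log2 fold change 0.14, adjusted p = 0.594), and the 12 genes of that list lay between −0.15 and 0.16. For TOR it was Tsc1, whose product restrains the complex, at −0.36 (adjusted p = 0.307), and for the IGF2 mRNA binding proteins Igf2bp2 at 0.32 (adjusted p = 0.579). Tsc1 had 49.9, 72.5 and 53.7 CPM in WT and 42.5, 48.4 and 46.1 CPM in KO libraries. Without WT b, 0 of 8 TOR genes and 1 of 3 IGF2 mRNA binding genes had an unadjusted p below 0.05 in edgeR, against 9.83% of all tested genes.

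FOXO factors are held out of the nucleus by AKT. Of the 9 genes of their list, which does not hold Foxo6, 8 had an estimate below 0. The median log2 fold change of the 9 was −0.21 beside 0.000088 over all tested genes. These are RNA levels, and a link to AKT or FOXO activity was not tested. None of the 9 passed in edgeR or limma-voom and 2 passed in DESeq2, while 4 had in edgeR an unadjusted p below 0.05 (Sesn1, Txnip, Foxo3 and Pik3ip1, the last 3 named after their values were seen). WT b was the highest WT library for each of the 8 genes with an estimate below 0. Without it the median was −0.12, 7 of 9 estimates were below 0, and 2 genes had an unadjusted p below 0.05. Txnip then changed from −0.69 to −0.35, Foxo3 from −0.27 to −0.15 and Pik3ip1 from −0.51 to −0.18, while Sesn1 changed from −0.40 to −0.37. Sesn1, a stress gene that restrains TOR, was the first of them at 139.2, 145 and 132 CPM in WT and 114, 112 and 90.1 CPM in KO libraries (log2 fold change −0.40, 95% interval −0.63 to −0.17, unadjusted p = 0.00261, adjusted p = 0.124 from edgeR).

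**Figure D4:**
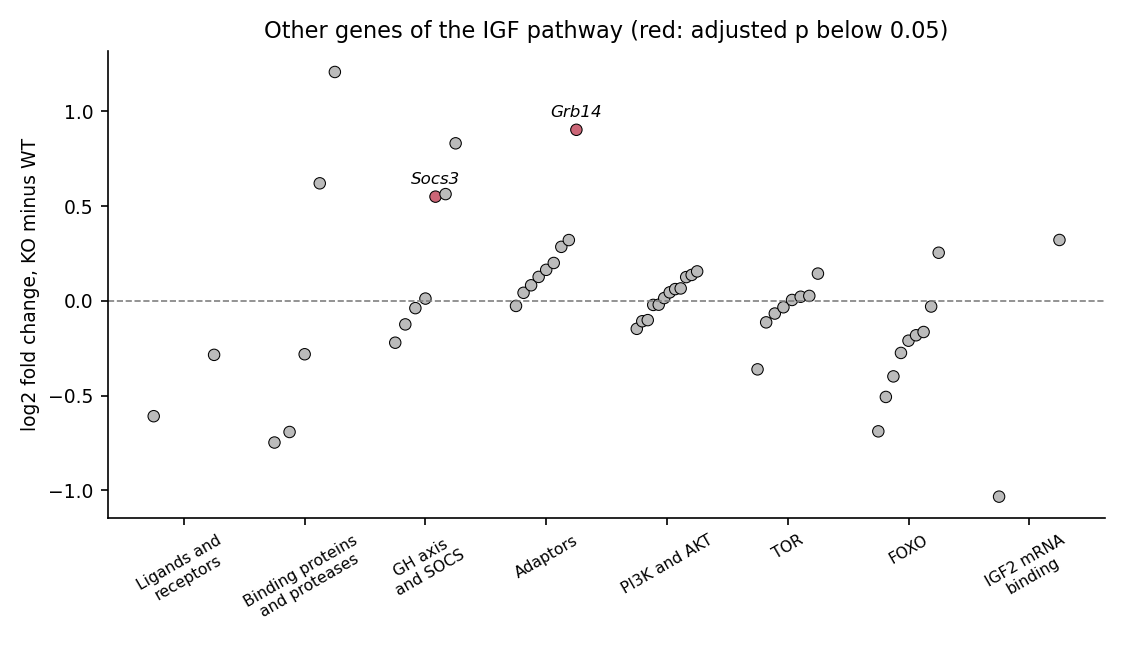
Log2 fold change of KO against WT (vertical axis) for the other IGF pathway genes with more than 3 counts in a library, grouped by list; red points have an adjusted p below 0.05 in edgeR. Grb14 (0.90) and Socs3 (0.55) are the 2 red points, and the 12 PI3 kinase and AKT genes lie between −0.15 and 0.16.

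The genes whose log2 CPM (pseudocount 0.5) most resembled those of Igfbp6 (smallest p of the set) and Igfbp7 (most abundant) were sought among those with a mean log2 CPM above 4, over the 6 libraries. For Igfbp6 these were Chat, Gpd1l and Hoxb4 (Pearson r of 0.997, 0.994 and 0.993, the highest among 8575 genes), and for Igfbp7 they were Nelfcd, Lphn3 and Tenm4 (0.995, 0.994 and 0.992, the highest among 8574 genes). With 6 points that share library, depth and genotype these values are a description only.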

How the data were processed

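The authors made stranded mRNA libraries, aligned 65-base single reads to mouse build 38 using TopHat 2.1.0 (Bowtie 1.1) guided by Ensembl annotation, and a script of theirs, built like HTSeq, counted unique alignments per gene on the matching strand. They deposited these counts unnormalized. Because only unique alignments were counted, reads shared with near-identical copies are lost. Column names carry genotype and mouse but not the titles' sample numbers. Every library pair differed by more than sampling noise.

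Genes with 0 counts throughout were dropped. edgeR 4.0.16 (TMM, glmQLFit, glmQLFTest; R 4.3.3) compared KO with WT over 21681 genes with Benjamini-Hochberg adjustment. A call is an adjusted p below 0.05. The labels give the tamoxifen schedule printed here, and the study's methods give another. Intervals are the fit's t intervals. At this depth 3 counts correspond to 0.128 to 0.145 CPM. These floors cover counting error only, since reads carry no molecular identifiers. Exon lengths were unions from GENCODE M21 (GRCm38). Alternatives were DESeq2 1.42.0, limma-voom (limma 3.58.1), other scalings and filters, and omission of each library. The code was tested on simulated counts. Members and lists were chosen with earlier results of these data known. Named were all members, pathway genes that passed or had the smallest p of their list, abundant markers and, for the members with the smallest p or highest level, the 3 most similar genes; other genes, including Irs2, Igf2, Igfbp1, Foxo6, Pik3r3, Gab1 and single markers, were named after their values were seen.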

Additional observations from a re-analysis of the deposited data

How the results depend on the processing

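No paired analysis was possible because the columns of the count table carry none of the sample numbers in the titles. Over 8 alternatives in tool, scaling or filter and 6 omissions of a library, no gene of the set was called, and in 121 of 126 pairs of gene and alternative the direction and the side of the threshold stayed as reported. The sign turned in 5: Igfbp3 in limma-voom (0.23) and without WT a (0.75), Igf1r and Irs1 without WT a (0.016 and 0.011) and Igfbp4 without WT b (0.11). The cause was not tested. The gap between the groups for Igfbp7 became an overlap with upper-quartile factors (−0.916 CPM); this check and those of Grb14, Socs3, Foxo6 and Pik3r3 were chosen after seeing the data. Over the whole table the 146 calls became 546 with DESeq2, 24 with limma-voom, 15 with filterByExpr, 12 with a minimum of 10 counts per library and 25 among protein-coding genes, and 5 to 521 with a library left out (5 without WT c, 10 without KO a, 30 without KO c and 521 without WT a). The order of the 9 genes per kilobase was the same with the longest transcript in place of the exon union. Leaving out single libraries moved the log2 fold change of Igf1r between −0.16 and 0.016, of Igfbp2 between −0.69 and −0.09, of Igfbp3 between −0.42 and 0.75, of Igfbp4 between −0.38 and 0.11, of Irs1 between −0.21 and 0.011, of Igfbp6 between −1.12 and −0.55, of Igfbp7 between 0.15 and 0.37 and of Igfbp5 between 0.15 and 0.58. Counts were lowest for Igfbp2, at 31 in its lowest library. With the same settings, also chosen after seeing the data, 0 to 6 of the pathway genes on the lists were called (6 with DESeq2; Grb14, Socs3, Pappa and Socs1 without WT a; Htra1 without WT b).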
